A study of Mus musculus with 30 samples.

Results

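Interleukin 2 (Il2), interleukin 21 (Il21) and 8 receptor chains built around the common gamma chain were followed in mouse helper T cells. Each of 5 kinds of culture was split by an interleukin 10 (IL-10) reporter into a positive and a negative compartment. The 10 genes, chosen by name, were Il2, Il21, Il2ra, Il2rb, Il2rg, Il4ra, Il7r, Il9r, Il15ra and Il21r. They are 10 of the 23420 gene symbols listed, and 9 of them were among the 12611 genes with enough reads to test. The study comprised 30 RNA-seq libraries, 3 in each of 10 groups, from C57BL/6 mice that carry a Foxp3-GFP reporter and an IL-10-Thy1.1 reporter. Naive CD4 T cells were activated with 2.5 ug/ml anti-CD3 and irradiated CD4-depleted spleen cells, at 6 feeder cells per T cell. Th1 cultures were given IL-12 at 20 ng/ml. Th2 cultures were given IL-4 at 20 ng/ml. Non-pathogenic Th17 cultures (Th17 here) received 2 ng/ml TGF-beta 1 plus 25 ng/ml IL-6, and pathogenic ones (pTh17) received 20 ng/ml IL-1 beta, 25 ng/ml IL-6 and 20 ng/ml IL-23. Tr1 cultures, which yield a regulatory type of T cell, were given IL-27 at 25 ng/ml. At 72 h, live GFP-negative TCR-beta-positive CD4 T cells were sorted into an IL-10 positive and an IL-10 negative compartment, so Foxp3-expressing cells were left out of both. Whether the libraries of a group stem from different cultures or mice is not stated, which means that p-values rest on how far these particular libraries scatter, and that scatter may be technical.

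Cytokines of this family share a receptor chain, the common gamma chain (Il2rg), which pairs with a private chain for each ligand. IL-2 binds CD25 (Il2ra), the beta chain (Il2rb) and the gamma chain, and drives growth of activated T cells, while IL-21 binds its own receptor chain (Il21r) and acts through STAT3. The shared chain signals through the kinase JAK3, and the signalling chain that it pairs with, such as Il2rb, through JAK1. IL-2, IL-7 and IL-15 act mainly through STAT5, IL-4 mainly through STAT6. IL-2 is made soon after T cell activation, and IL-21 is a product of Th17 and follicular helper T cells.

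The stretch before the start of a gene holds much of what switches it on in T cells. Windows of 250 bases are shown for 3 genes, from RefSeq on build GRCm38.p6. They belong to the 2 cytokine genes, which lie next to each other, and to Il2ra, which was higher in IL-10 positive cells of all 5 cultures. All 3 are read 5′ to 3′ along the gene's own strand. Capitals mark GGAAA on either strand (TTTCC on the strand shown), the core that NFAT factors of the T cell receptor pathway can bind.
Il2 (chr3:37125955-37126204, minus strand): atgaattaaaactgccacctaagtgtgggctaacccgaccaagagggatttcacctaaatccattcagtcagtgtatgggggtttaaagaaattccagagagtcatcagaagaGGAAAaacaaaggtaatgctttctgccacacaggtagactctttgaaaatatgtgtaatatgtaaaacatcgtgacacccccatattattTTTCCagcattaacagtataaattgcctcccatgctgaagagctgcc
Il21 (chr3:37232637-37232886, minus strand): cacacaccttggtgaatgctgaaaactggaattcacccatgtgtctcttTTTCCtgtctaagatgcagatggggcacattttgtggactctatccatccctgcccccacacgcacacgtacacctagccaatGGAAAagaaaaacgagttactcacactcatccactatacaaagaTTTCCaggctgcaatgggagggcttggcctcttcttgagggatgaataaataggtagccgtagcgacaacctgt
Il2ra (chr2:11642542-11642791, plus strand): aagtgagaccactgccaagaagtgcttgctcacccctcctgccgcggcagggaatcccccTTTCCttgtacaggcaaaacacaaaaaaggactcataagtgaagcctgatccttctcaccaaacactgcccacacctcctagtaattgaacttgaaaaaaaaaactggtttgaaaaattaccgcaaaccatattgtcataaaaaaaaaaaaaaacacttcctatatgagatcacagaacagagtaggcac
The Il2 window holds 2 matches, the Il21 window 3 and the Il2ra window 1. Of 32851 such windows over all genes, 55.6% hold at least 1 match and 6.39% hold 3 or more. A STAT palindrome, TTCNNNGAA, is in 7.02% of windows and in none of these 3, so it overlaps no marked core. A match is a run of letters and not evidence of binding. Il2rb had no window in the table.

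Library totals ran between 4394704 and 11850597 expected counts, the read counts that RSEM assigns to genes. Log expression of replicates correlated at r = 0.971 to 0.992. IL-10 positive Tr1 replicate 18 stood apart from the other 2 of its group, so results that change without it are given with and without it. Il10 transcripts checked the sort. The Th2 groups averaged 1152 ± 99.5 TPM in positive and 93.0 ± 7.56 TPM in negative cells, and the Tr1 groups 70.25 ± 8.96 and 0.733 ± 0.655 TPM (SD, n = 3 each). TPM, a transcript abundance, is scaled for depth and gene length. Mean Il10 was higher in the positive than in the negative cells of every culture. Th2 negative cells nonetheless held more Il10 than Tr1 positive, pTh17 positive (76.8 TPM) and Th17 positive cells (39.4 TPM). The same compartment in different cultures therefore does not stand for the same Il10 level. The CD4 T cell markers Cd3e, Cd3g, Cd4 and Cd5 were detected in every library and together averaged between 1689 and 2457 CPM (a depth-scaled count with no correction for length) in each group. Markers of other cells moved with the IL-10 compartment, and their part in the receptor results was not tested. The B cell list (9 genes listed) summed to 257 ± 37.1 CPM in pTh17 positive and 117 ± 5.61 CPM in negative cells. The NK cell list (5 genes) summed to 84.0 ± 1.86 CPM in Th1 positive and 8.28 ± 0.289 CPM in negative cells. Klrk1 alone gave 82.4 and 7.28 CPM of those sums. The NK-defining Ncr1 had 0 counts in Th1 positive and 1 count in Th1 negative cells. Klre1 had 10 counts in Th1 positive and 0 in Th1 negative cells, Klrb1c 14 and 8, and Eomes 14 and 11. By edgeR, 2 of the 3 NK genes tested were called higher in Th1 positive cells and 0 lower. In Tr1 cells the NK list summed to 63.5 ± 4.94 CPM in positive and 6.02 ± 0.424 CPM in negative cells. There too Klrk1 alone gave most, 61.9 and 5.08 CPM of those sums, while Ncr1 had 5 and 2 counts. The CD8 list (Cd8a and Cd8b1) summed to 47.1 ± 4.37 CPM in Tr1 positive and 25.0 ± 2.03 CPM in Tr1 negative cells. In Th1 cells the CD8 list summed to 33.4 ± 3.06 CPM in positive and 23.0 ± 4.08 CPM in negative cells. The myeloid list (9 genes) summed to 76.2 ± 5.39 CPM in Th1 positive and 21.0 ± 3.64 CPM in Th1 negative cells. Itgam alone gave 69.1 and 19.1 CPM of those sums, while Lyz2 averaged 0.042 and 0.054 CPM. Itgax had 70 counts in Th1 positive and 6 in Th1 negative cells, Tyrobp 26 and 1, and Cd68 59 and 22. By edgeR, 3 of the 8 myeloid genes tested were called higher in Th1 positive cells and 0 lower. The myeloid list summed to 36.4 ± 4.82 CPM in pTh17 positive and 12.5 ± 0.83 CPM in pTh17 negative cells, and to 20.0 ± 0.69 and 6.05 ± 0.89 CPM in Tr1 cells.

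**Figure D1:**
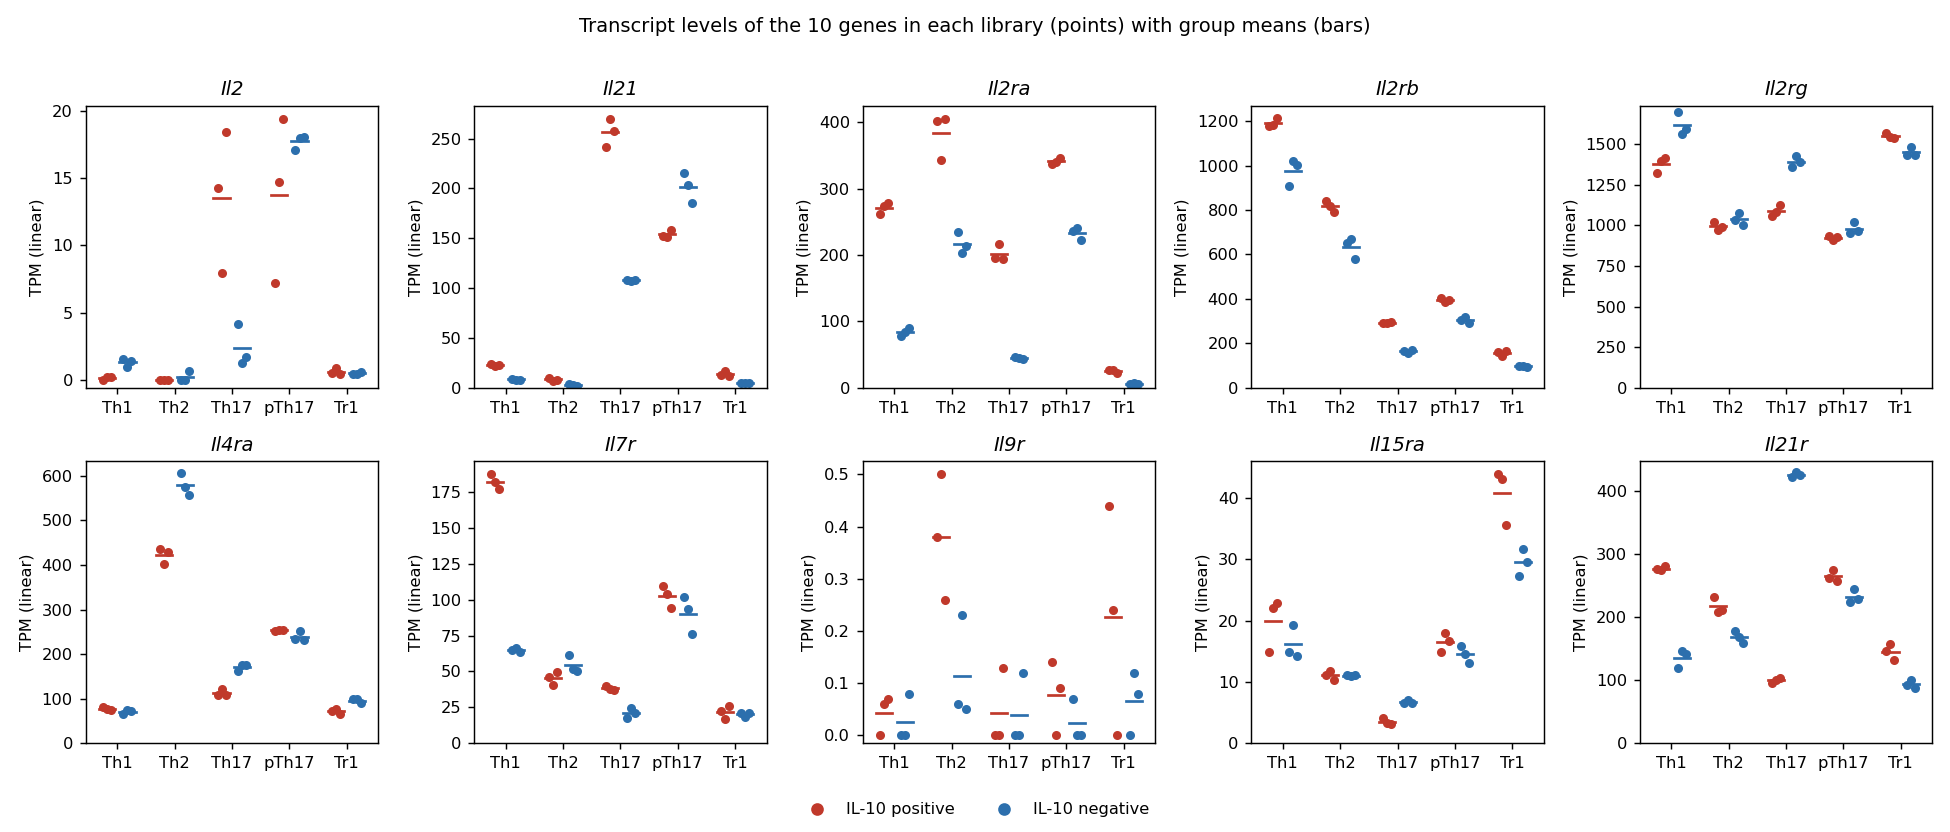
TPM on linear axes for each of the 10 genes in every library (points) with the mean of 3 libraries (bars), IL-10 positive to the left of IL-10 negative in each culture. Il21 is highest in Th17 positive cells, Il21r in Th17 negative cells, and Il2ra is higher in the positive cells of all 5 cultures.

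In every culture the IL-10 positive cells held more Il2ra and Il2rb, and in 4 of the 5 more Il21. By edgeR's estimate, the shared chain Il2rg differed by at most 0.21 on the log2 scale in either direction. Its TPM means lay further apart than that in Th17 cells, at 1088 in positive and 1392 in negative cells. Calls rest on edgeR's quasi-likelihood test over all 12611 genes, with Benjamini-Hochberg adjusted p below 0.05. In Th1 cells 8 of the 9 genes were called, 6 higher and 2 lower, where 43.8% of all genes were called (23.5% higher, 20.4% lower). In Th2 cells 5 were called, 4 higher and 1 lower, against 21.8% of all genes (12.3% higher, 9.49% lower). In Th17 cells all 9 were called, 5 higher and 4 lower, against 58.2% of all genes (29.2% higher, 28.9% lower). In pTh17 cells 4 were called, 2 each way, against 18.5% of all genes (10.1% higher, 8.33% lower). In Tr1 cells 7 were called, 6 higher and 1 lower, against 34.7% of all genes (20.5% higher, 14.2% lower). The median log2 fold change of the 9 was 0.34 in Th1, -0.03 in Th2, 0.98 in Th17, 0.11 in pTh17 and 0.54 in Tr1 cells. Over all genes tested it was -0.02, 0.01, -0.04, -0.00 and 0.05 in the same cultures. Averaged over the 5 cultures, 7 were called, 5 higher and 2 lower, where 57.8% of all genes were called (29.6% higher, 28.2% lower). The size of the IL-10 difference varied between cultures for all 9 genes (edgeR test of equality), as it did for 60.7% of all genes. Between cultures all 9 differed within positive cells and all 9 within negative cells, as did 92.2% and 88.2% of all genes. For single pairs of cultures, between 39.4% and 71.8% of all genes differed in level, and between 8.62% and 43.2% in their IL-10 difference. In these bulk samples, fewer cells that carry a transcript and less of it per cell cannot be told apart.

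**Figure D2:**
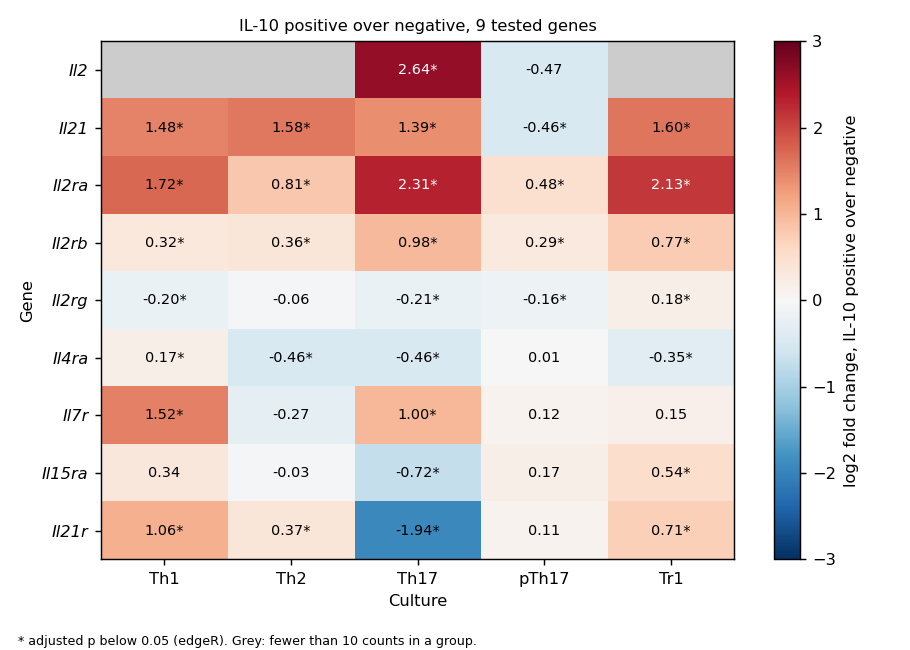
log2 fold change of IL-10 positive over negative cells for the 9 tested genes (rows) in the 5 cultures (columns), with an asterisk where edgeR's adjusted p is below 0.05. The Il2ra and Il2rb rows are positive throughout, the Il21 row turns negative in pTh17 (-0.46), and the Il21r row turns negative in Th17 (-1.94); grey marks groups with fewer than 10 counts.

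Il21 encodes the cytokine that supports Th17 cells and B cell help. Its widest differences in level lay between cultures. Th17 positive libraries held 241, 269 and 258 TPM, against 108, 107 and 108 TPM in Th17 negative libraries. pTh17 positive libraries held 152.5, 152 and 159 TPM, against 215, 204 and 185 TPM in pTh17 negative ones. In both cultures the compartments did not overlap, but they lay in opposite order. The Th1 positive libraries held 23.9, 21.8 and 23.3 TPM, against 8.64, 8.40 and 8.26 TPM in Th1 negative ones. Tr1 positive libraries held 12.5, 16.7 and 12.1 TPM, against 4.51, 5.15 and 4.75 TPM in Tr1 negative ones. The Th2 positive libraries, at 10.03, 6.95 and 8.34 TPM, lay above the negative ones at 3.68, 2.65 and 2.21 TPM. Within each of these 3 cultures, all positive libraries were above all negative ones. On the log2 scale, edgeR gave positive over negative differences of 1.48 ± 0.12 in Th1, 1.58 ± 0.14 in Th2, 1.39 ± 0.08 in Th17 and 1.60 ± 0.16 in Tr1 cells (SE). Those 4 differences, each near a 3-fold change, did not differ from each other by the test of any pair, where edgeR's adjusted p lay between 0.379 and 0.962. In pTh17 cells Il21 fell by 0.46 ± 0.08 on the log2 scale (edgeR adjusted p = 3.39e-05). The Th17 difference exceeded the pTh17 one by 1.85 ± 0.11 (edgeR adjusted p = 2.57e-16). The order of Il21 levels was Th17, pTh17, Th1, Tr1 and Th2 among positive cells, and pTh17, Th17, Th1, Tr1 and Th2 among negative cells. Every neighbour in both orders differed (edgeR), down to the Tr1 to Th2 step among negative cells (adjusted p = 0.00263). Across groups the means ran between 2.85 TPM in Th2 negative and 256 TPM in Th17 positive cells, an 89.98-fold range.

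Il2 encodes the T cell growth factor, and at 72 h its transcripts were scarce. Th17 positive libraries had 63, 35 and 80 counts, and Th17 negative libraries 10, 3 and 4. pTh17 positive libraries had 29, 49 and 62 counts, and pTh17 negative ones 71, 65 and 78. The Th17 compartments did not overlap, and the pTh17 compartments did on the TPM scale. In Th17 cells Il2 averaged 13.5 TPM in positive and 2.37 TPM in negative libraries, a log2 difference of 2.64 ± 0.45 (edgeR adjusted p = 5.76e-06). Without IL-10 negative replicate 10, which carried most of that group's counts, the difference was 3.36. In pTh17 cells the means were 13.8 and 17.7 TPM, and the difference of -0.47 ± 0.33 did not pass (edgeR adjusted p = 0.381). The Th17 and pTh17 differences were unequal, by 3.10 ± 0.57 (edgeR adjusted p = 2.76e-05). Elsewhere Il2 was almost absent. Th1 cells had 2 counts in all in the positive and 12 in the negative libraries, a rate ratio of 0.127 with an exact 95% interval of 0.0138 to 0.569 for counting error. That difference was called (edgeR adjusted p = 0.0241), and the call was lost without positive replicate 4 (0.0784), negative replicate 4 (0.0596) or negative replicate 6 (0.0625). Th2 cells had 0 counts in positive libraries, where 3 counts correspond to 0.0851 CPM, and 4 in negative ones, all in replicate 9. Tr1 cells had 4 counts in each compartment. Neither of these 2 cultures passed the test (edgeR adjusted p = 0.142 for Th2 and 0.870 for Tr1).

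Il21 was thus highest in the Th17 and pTh17 cultures in both compartments, and Il2 in both compartments of pTh17 and in Th17 positive cells. Il2 in Th17 negative cells was not told apart from Th1 negative cells, at 2.37 and 1.32 TPM (edgeR adjusted p = 0.654). Over the 10 group means of log2 CPM, Il2 and Il21 correlated at r = 0.871, given as a description, since the groups share cultures and many T cell genes follow the same split.

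Il2ra encodes CD25, the alpha chain that gives the IL-2 receptor its high affinity. Like Il2rb, it was higher in IL-10 positive cells of every culture. Th17 positive libraries held 195, 216 and 194 TPM, against 46.0, 45.2 and 43.8 TPM in Th17 negative ones. Tr1 positive libraries held 26.4, 26.8 and 23.05 TPM, against 6.33, 6.79 and 5.42 TPM in Tr1 negative ones. Th1 positive libraries held 262, 273 and 279 TPM, against 78.8, 84.2 and 89.6 TPM in Th1 negative ones. In these 3 cultures positive libraries lay well above negative ones. Th2 positive libraries held 402, 342 and 404 TPM, against 235, 203 and 214 TPM in Th2 negative ones. In pTh17 cells the positive libraries held 336, 340.5 and 346 TPM, against 237, 241 and 222 TPM in negative ones. No positive library overlapped a negative one of its culture, and the 2 cultures with the most Il2ra, Th2 and pTh17, had the smallest differences. The log2 differences were 2.31 ± 0.07 in Th17, 2.13 ± 0.10 in Tr1, 1.72 ± 0.06 in Th1, 0.81 ± 0.06 in Th2 and 0.48 ± 0.06 in pTh17 cells (SE), all called, with edgeR's adjusted p at most 1.59e-07. The Th17 and Tr1 differences were not told apart (0.19 ± 0.12, edgeR adjusted p = 0.238), and every other pair of cultures differed, up to an adjusted p of 0.0118 for Th1 against Tr1. The mean of the 5 differences was 1.49 ± 0.03. Positive cells ranked Th2, pTh17, Th1, Th17 and Tr1, and all neighbours differed. In negative cells pTh17 and Th2 were not told apart (edgeR adjusted p = 0.164), followed by Th1, Th17 and Tr1. Tr1 cells stood lowest in both compartments, at 25.4 TPM in positive and 6.18 TPM in negative cells.

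Il2rb encodes the beta chain shared by the IL-2 and IL-15 receptors, the chain that recruits JAK1. It followed Il2ra with smaller differences. The Th17 positive libraries held 291, 291 and 296 TPM, against 165, 156 and 173 TPM in negative ones. Tr1 positive libraries held 162, 145 and 166 TPM, against 99.1, 99.6 and 93.6 TPM in Tr1 negative ones. In the other cultures the means were higher and closer together. Th1 cells averaged 1191 ± 18.4 TPM in positive and 976 ± 61.4 TPM in negative cells, Th2 cells 816 ± 24.6 and 635 ± 48.2 TPM, and pTh17 cells 394 ± 9.44 and 306 ± 12.2 TPM (SD, n = 3 each). Compartments did not overlap in any culture. The log2 differences were 0.98 ± 0.06 in Th17, 0.77 ± 0.06 in Tr1, 0.36 ± 0.06 in Th2, 0.32 ± 0.06 in Th1 and 0.29 ± 0.06 in pTh17 cells (SE), all called (edgeR adjusted p at most 0.000145). Th1, Th2 and pTh17 were not told apart from each other in this difference (edgeR adjusted p between 0.686 and 0.867). The order of levels, Th1, Th2, pTh17, Th17 and Tr1, was the same in both compartments, and each neighbour differed (edgeR). Il2rb and Il15ra transcripts are also found in NK and memory CD8 T cells, whose marker sums are given above.

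Il2rg encodes the common gamma chain itself, which these cytokine receptors share. It was abundant in every group and varied little. Group means lay between 925 TPM in pTh17 positive and 1616 TPM in Th1 negative cells, a 1.75-fold range. In Th17 cells the positive libraries held 1057, 1082 and 1127 TPM, against 1359, 1429 and 1389 TPM in negative ones. In Tr1 cells the positive libraries held 1570.0, 1546 and 1541 TPM, against 1434, 1481 and 1432 TPM in negative ones. The compartments of both cultures were apart, in opposite order. The log2 differences were small: -0.20 ± 0.05 in Th1, -0.21 ± 0.05 in Th17, -0.16 ± 0.05 in pTh17 and 0.18 ± 0.05 in Tr1 cells (SE), all called by edgeR, and -0.06 ± 0.05 in Th2 cells, not called (adjusted p = 0.421). Only the Th17 call kept its adjusted p below 0.05 under each alternative run here. The Tr1 call was lost without positive replicate 18 (edgeR adjusted p = 0.0793), in a fit of the Tr1 libraries alone (0.0947) and with no filter on low counts (0.405). The Th1 call was lost with no filter (edgeR adjusted p = 0.113). The pTh17 call was lost without positive replicate 14 or 15 or negative replicate 15 (edgeR adjusted p between 0.0829 and 0.0925), with no filter (0.0673) and on the TPM scale (limma adjusted p = 0.153). Among positive cells Tr1 and Th1 were not told apart at the top, nor Th17 and pTh17 at the bottom (edgeR adjusted p = 0.708 and 0.268).

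Il4ra encodes the IL-4 receptor alpha chain, shared with the IL-13 receptor, and IL-4 is the cytokine added to Th2 cultures. Its level was highest there. Th2 positive libraries held 435, 402 and 429 TPM, against 605, 576 and 557 TPM in Th2 negative ones. Th17 positive libraries held 107, 121 and 108 TPM, against 162, 175 and 175 TPM in Th17 negative ones. Tr1 positive libraries held 71.9, 76.0 and 66.1 TPM, against 99.3, 98.5 and 90.2 TPM in Tr1 negative ones. In these 3 cultures every positive library was below every negative one. Il4ra fell by 0.46 ± 0.05 in Th2, by 0.46 ± 0.05 in Th17 and by 0.35 ± 0.06 in Tr1 cells on the log2 scale (edgeR adjusted p at most 7.89e-06). In pTh17 cells the positive libraries lay above the negative ones in TPM but overlapped them in CPM, with means of 253 and 239 TPM and a log2 difference of 0.01 ± 0.05 (edgeR adjusted p = 0.911). In Th1 cells the means were 77.7 and 70.7 TPM and Il4ra was called higher, by 0.17 ± 0.06 (edgeR adjusted p = 0.0154). The Th1 call was lost without positive replicate 4 (0.128), without negative replicate 4 (edgeR, 0.0619) and on the TPM scale (limma, 0.0764). The Th1 difference was unequal to the Th2 one, by 0.63 ± 0.08 (edgeR adjusted p = 5.85e-08). All neighbours in the order of Il4ra levels differed, which ran Th2, pTh17, Th17, Th1 and Tr1 in positive and Th2, pTh17, Th17, Tr1 and Th1 in negative cells.

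Il7r encodes the IL-7 receptor alpha chain (CD127), which naive and memory T cells use for survival and which is usually lowered by activation. Th1 positive libraries held 188, 182 and 177 TPM, against 64.9, 66.6 and 63.6 TPM in Th1 negative ones. Th17 positive libraries held 39.7, 37.9 and 36.9 TPM, against 17.5, 24.9 and 21.2 TPM in Th17 negative ones. The compartments were apart in both cultures. The log2 differences were 1.52 ± 0.10 in Th1 and 1.00 ± 0.12 in Th17 cells (SE), both called (edgeR adjusted p = 2.68e-15 and 5.58e-09). They were unequal, by 0.51 ± 0.16 (edgeR adjusted p = 0.0099). In pTh17 cells the means were 103 and 90.4 TPM and in Tr1 cells 21.5 and 20.3 TPM, positive first in each, with differences of 0.12 ± 0.10 and 0.15 ± 0.14 that did not pass (edgeR adjusted p = 0.493 and 0.431). Th2 cells averaged 45.4 TPM in positive and 54.8 TPM in negative cells, a log2 difference of -0.27 ± 0.10 just outside the threshold (edgeR adjusted p = 0.052). It passed with other size factors (edgeR, 0.0472), in DESeq2 (0.0415) and with no filter on low counts (edgeR, 0.0138), and over the fits that left out a library the edgeR adjusted p lay between 0.0352 and 0.292. The difference in Th1 exceeded that in Th2 by 1.79 ± 0.14 (edgeR adjusted p = 2.42e-12).

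Il21r encodes the private chain of the IL-21 receptor. Its IL-10 difference was unequal over the cultures (edgeR adjusted p = 1.03e-25). Th17 positive libraries held 96.1, 99.96 and 104 TPM, against 422, 430 and 425 TPM in Th17 negative ones. The Th17 negative cells were thus the highest of all 10 groups in TPM and the Th17 positive cells next to the lowest. Il21r fell by 1.94 ± 0.06 on the log2 scale in Th17 positive cells (edgeR adjusted p = 1.39e-25). The other cultures went the other way or showed little. Th1 positive libraries held 276, 275 and 280.5 TPM, against 119, 147 and 141 TPM in Th1 negative ones, a log2 difference of 1.06 ± 0.06. Tr1 positive libraries held 146, 157 and 132 TPM, against 92.6, 101 and 88.05 TPM in Tr1 negative ones, a difference of 0.71 ± 0.07. Th2 cells averaged 217 TPM in positive and 168 TPM in negative cells, a difference of 0.37 ± 0.06. These 3 were called (edgeR adjusted p at most 7.46e-06), and in each of them all positive libraries lay above all negative ones. In pTh17 cells the positive libraries, at 262, 275 and 257 TPM, also lay above the negative ones, at 224, 245 and 229 TPM, but the difference of 0.11 ± 0.06 did not pass (edgeR adjusted p = 0.196). Th17 was below each other culture in this difference, by 2.06 ± 0.09 against pTh17, 2.31 ± 0.09 against Th2, 2.65 ± 0.09 against Tr1 and 3.004 ± 0.087 against Th1 cells (edgeR adjusted p at most 5.18e-21). Opposite changes nearly cancelled in the mean of the 5 differences, 0.06 ± 0.03 (edgeR adjusted p = 0.0455). That call was lost without positive replicate 4, 6, 7, 12, 13, 14 or 17, or negative replicate 4, 8, 9, 11, 12, 13, 14, 16 or 18 (edgeR adjusted p between 0.0502 and 0.106), and with no filter on low counts (0.185). In Th17 cells Il21 and its receptor chain thus went in opposite directions, with Il21 higher and Il21r lower in positive cells, while in Th1, Th2 and Tr1 cells both were higher.

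Il15ra encodes the alpha chain that holds IL-15 and presents it to neighbouring cells. It was the least abundant of the tested receptor chains in every culture but Tr1, where Il2ra and Il7r were lower per length. Tr1 positive libraries held 43.9, 43.1 and 35.6 TPM, against 27.4, 31.6 and 29.6 TPM in Tr1 negative ones. Th17 positive libraries held 4.10, 3.31 and 3.16 TPM, against 6.55, 7.11 and 6.61 TPM in Th17 negative ones. Tr1 cells were thus the highest and Th17 cells the lowest in both compartments. The log2 differences were 0.54 ± 0.14 in Tr1 (edgeR adjusted p = 0.00238) and -0.72 ± 0.22 in Th17 cells (edgeR adjusted p = 0.005), the second with 26 to 32 counts per library and an adjusted p of 0.0505 in a fit of the Th17 libraries alone. In Th1 cells the libraries overlapped, at 14.8, 22.0 and 22.9 TPM in positive and 14.9, 19.4 and 14.2 TPM in negative cells, and the difference of 0.34 ± 0.15 did not pass (edgeR adjusted p = 0.0537). It passed with other size factors (edgeR, 0.024), in DESeq2 (0.0319) and without positive replicate 4 (0.00531), negative replicate 5 (0.0211) or Tr1 positive replicate 18 (edgeR, 0.0277). Neither Th2 nor pTh17 cells passed, at -0.03 ± 0.15 and 0.17 ± 0.15. The tables join 9 transcripts under this gene, more than for any other of the 10, so a shift between transcripts would not be seen.

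Il9r, the receptor chain for the mast cell and T cell growth factor IL-9, was too low to test. No group had more than 24 counts in all. Th2 positive libraries had 8, 11 and 5 counts and Th2 negative libraries 1, 4 and 1. That is a rate ratio of 3.68, with an exact 95% interval of 1.46 to 11.002 that covers counting error only. The other 4 cultures had at most 5 counts per compartment.

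Set beside each other, the chains other than Il2rg made up mixes that differed between compartments more in some cultures than in others. These chains are called private here, although Il2rb and Il4ra are each shared between receptors. The TPM values of all of them (Il2ra, Il2rb, Il4ra, Il7r, Il9r, Il15ra and Il21r) were summed in each library. Shares are described without a test. In Th17 positive cells Il2rb made up 39.1 ± 1.14% and Il2ra 27.0 ± 0.99% of the sum, against 19.8 ± 0.99% and 5.40 ± 0.21% in Th17 negative cells (SD, n = 3 each). Il21r made up 13.4 ± 0.57% in Th17 positive and 51.0 ± 0.62% in Th17 negative cells. The prevailing chain was therefore Il2rb in the positive and Il21r in the negative Th17 cells. In Th1 cells Il2rb prevailed in both compartments, at 59.0 ± 0.25% in positive and 72.4 ± 0.12% in negative cells. In Th2 cells Il4ra made up 22.3 ± 0.33% in positive and 34.8 ± 0.60% in negative cells. In Tr1 cells Il15ra reached 8.84 ± 0.78% in positive and 8.61 ± 0.61% in negative cells, against at most 1.30% in any other group. The pTh17 mixes were much alike, with Il2ra at 24.8 ± 0.52% in positive and 20.9 ± 0.23% in negative cells.

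**Figure D3:**
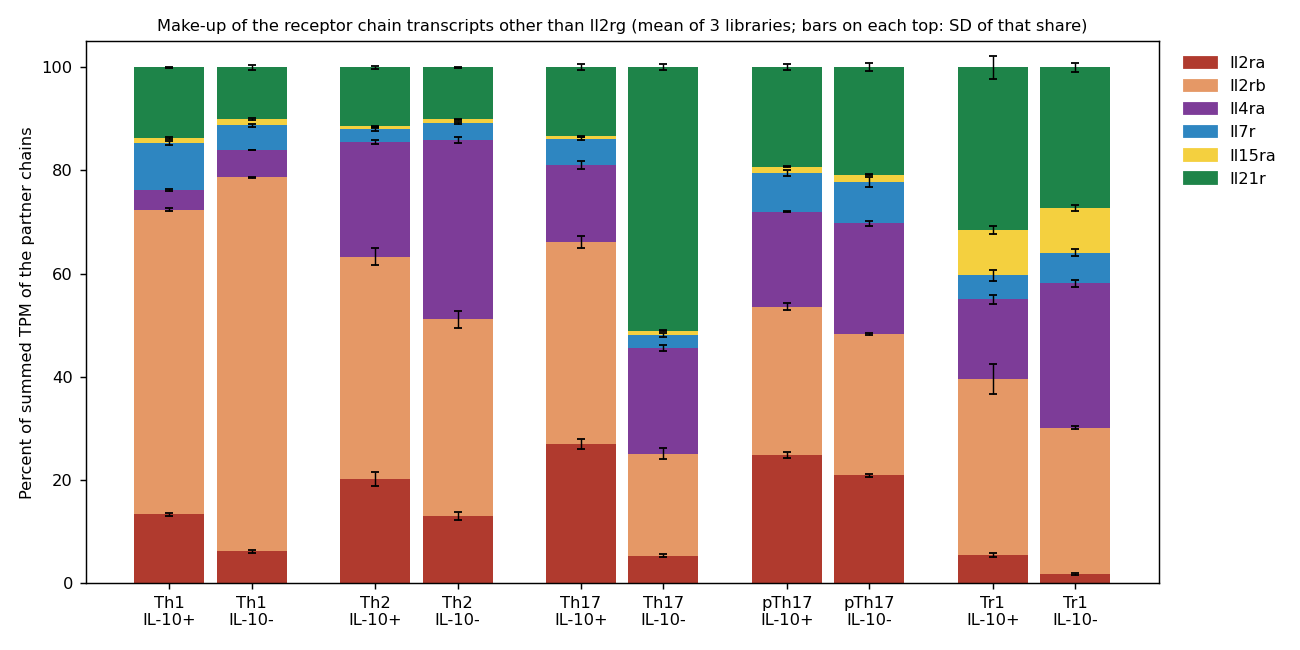
Percent of the summed TPM of the private receptor chains taken by each chain (stacked, mean of 3 libraries; small bars give the SD of each share), IL-10 positive left of negative. Th17 negative cells stand out by their Il21r share of 51.0%, Th1 cells by Il2rb and Tr1 cells by Il15ra; Il9r, below 0.05% in every group, is not drawn.

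The summed private chains were also set against Il2rg. In Th1 cells the sum was 1.47 ± 0.04 times Il2rg in positive and 0.836 ± 0.088 times in negative cells. In Th2 cells it was 1.90 ± 0.02 and 1.61 ± 0.07 times, and in pTh17 cells 1.48 ± 0.02 and 1.14 ± 0.03 times. In Th17 cells it was 0.688 ± 0.027 and 0.599 ± 0.011 times, and in Tr1 cells 0.298 ± 0.006 and 0.237 ± 0.007 times. In all 5 cultures the ratio was higher in the 3 positive libraries than in the 3 negative ones. In Th17 cells the sum itself was lower in positive cells, at 748 ± 18.6 TPM, against 834 ± 13.1 TPM in negative cells, as was Il2rg. Transcript ratios do not give the ratio of proteins at the surface.

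Of the genes, 6 lie in 3 neighbouring pairs (GRCm38.p6). Il2 (chr3:37120713-37125954) and Il21 (chr3:37222759-37232636) are both on the minus strand, 96.8 kb apart with no protein-coding gene between them. Il2ra (chr2:11642792-11693194) and Il15ra (chr2:11705172-11733985) are on the plus strand, 11977 bases apart. Il4ra (chr7:125552271-125579474) and Il21r (chr7:125603252-125634397) are on the plus strand, 23.8 kb apart with no annotated gene between them. Nearness did not go with a like IL-10 difference in every culture. Il4ra and Il21r had opposite called differences in Th2 (-0.46 and 0.37) and in Tr1 cells (-0.35 and 0.71), and both were lower in Th17 cells (-0.46 and -1.94). Il2ra was higher and Il15ra lower in Th17 cells (2.31 and -0.72), and both were higher in Tr1 cells (2.13 and 0.54). Il2 and Il21 were both higher in Th17 positive cells (2.64 and 1.39). In Th1 cells Il2 was called lower, on 2 counts in positive and 12 in negative libraries, and Il21 higher (1.48). Differences of members of a pair were not tested against each other. The spans of Il21, Il2ra and Il9r each overlap another annotated gene. Since reads carry no strand, reads from a stretch transcribed in both genes cannot be told apart. Whether exons overlap was not examined.

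**Figure D4:**
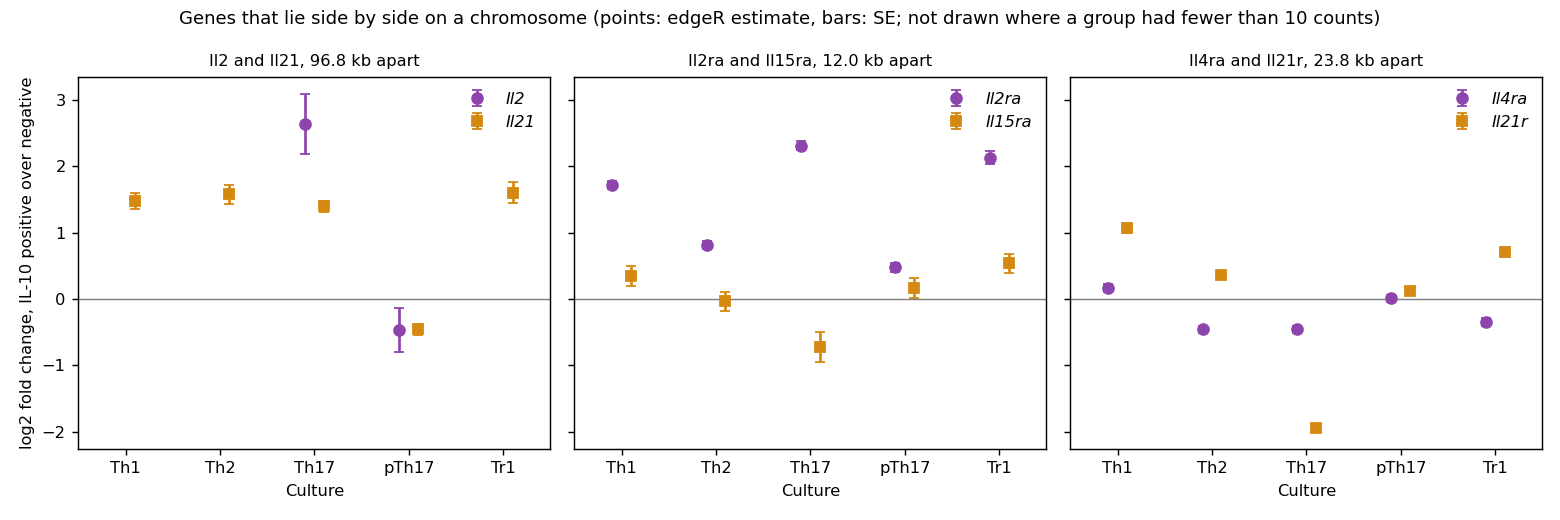
log2 fold change of IL-10 positive over negative cells (edgeR estimate, bars are SE) for the 3 pairs of neighbouring genes in the 5 cultures. Il2ra lies above its neighbour Il15ra in all 5 cultures, and Il4ra and Il21r lie on opposite sides of 0 in Th2 and Tr1 cells; Il2 is drawn only in Th17 and pTh17 cells, where both compartments had at least 10 counts.

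Other genes of the pathway were counted from lists by role, 36 tested of 41. Together 21 of them were called in Th1, 22 in Th2, 27 in Th17, 20 in pTh17 and 21 in Tr1 cells, to be read beside the shares of all genes given above. Of the 7 kinases and STATs, none was called higher in any culture, and 2, 3, 5, 6 and 3 were called lower in Th1, Th2, Th17, pTh17 and Tr1 cells. The exception came with other size factors or DESeq2, under which 1 was called higher in Th1 cells. Other size factors called 1 lower there, against 2 here. Among all genes, 20.4% were called lower in Th1, 9.49% in Th2, 28.9% in Th17, 8.33% in pTh17 and 14.2% in Tr1 cells. The Th1 count of 2 of 7 is near its share. Stat6, which carries the IL-4 signal, was lower in all 5 cultures, by 0.42 ± 0.06 in Th1 cells and by 0.22 to 0.25 in the others on the log2 scale. Jak3, the kinase of the common gamma chain, was called only in Th17 cells (-0.15 ± 0.05). Jak1 fell by 0.80 ± 0.07 in Th17, 0.45 ± 0.07 in Tr1 and 0.28 ± 0.07 in pTh17 cells.

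Of the 5 feedback genes, which restrain cytokine signals, 4 were called in Th1 (2 higher, 2 lower), 4 in Th2 (1 and 3), 5 in Th17 (3 and 2), 3 in pTh17 (2 and 1) and 4 in Tr1 cells (2 and 2). Of all genes, 43.8%, 21.8%, 58.2%, 18.5% and 34.7% were called in these cultures, in the same order. On the TPM scale with limma, 2 feedback genes were called in Th2 (1 each way) and 2 in pTh17 cells (both higher). Cish and Socs2 are targets of STAT5. Cish averaged 71.6 ± 4.498 TPM in Th1 positive and 14.8 ± 2.24 TPM in Th1 negative cells, and 160 ± 15.7 and 38.3 ± 4.49 TPM in Th17 cells (SD, n = 3 each). In Th2 cells it averaged 461 ± 16.1 TPM in positive and 556 ± 17.3 TPM in negative cells. In Tr1 cells it was low, at 9.69 ± 1.74 TPM in positive and 2.83 ± 1.33 TPM in negative cells. In pTh17 cells it averaged 465 ± 11.8 TPM in positive and 387 ± 11.8 TPM in negative cells. That log2 difference of 0.19 ± 0.07 did not pass (edgeR adjusted p = 0.0676). Its log2 difference was 2.33 ± 0.10 in Th1, 2.21 ± 0.09 in Th17 and 1.88 ± 0.21 in Tr1 cells, and -0.27 ± 0.07 in Th2 cells, all called by edgeR. Socs2 was called in the same directions there, at 1.82, 1.59, 1.42 and -0.45, and was also higher in pTh17 cells (0.46). Socs3, a target of STAT3, averaged 99.7 ± 3.19 TPM in Th17 positive and 479 ± 32.7 TPM in Th17 negative cells, a fall by 2.11 ± 0.08. The 3 cultures in which Cish was called higher in positive cells were those with the widest Il2ra differences. A link between these was not tested.

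Of 10 genes known to respond to cytokines of this family, 7 were called in Th1 (2 higher, 5 lower), 4 in Th2 (1 and 3), 9 in Th17 (4 and 5), 2 in pTh17 (both lower) and 4 in Tr1 cells (all lower). For comparison, 43.8% of all genes were called in Th1, 21.8% in Th2, 58.2% in Th17, 18.5% in pTh17 and 34.7% in Tr1 cells. The pTh17 and Tr1 counts are near their shares. With limma on TPM, 1 was called in pTh17 and 7 in Tr1 cells, all lower, and with other size factors or DESeq2 2 were called higher and 3 lower in Th2 cells. Bcl2, a survival gene, was lower in Th1 (-1.03), Th2 (-1.43) and Tr1 cells (-1.94) and higher in Th17 cells (0.24). Lif, a cytokine gene, averaged 72.8 ± 1.56 TPM in Th17 positive and 10.3 ± 1.59 TPM in Th17 negative cells (log2 difference 2.95 ± 0.12). Lif was also higher in Th1 (0.85) and Th2 cells (0.32), and lower in pTh17 (-0.53) and Tr1 cells (-1.18). Bcl6, a transcriptional repressor that drives the follicular helper program, was lower in each culture but Th2, where its difference was 0.01 ± 0.10.

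Of 10 regulators known to act on genes of this family, 7 were called in Th1 (4 higher, 3 lower), 9 in Th2 (5 and 4), 7 in Th17 (3 and 4), 7 in pTh17 (3 and 4) and 9 in Tr1 cells (7 and 2). In Th1 cells other size factors, limma on TPM and DESeq2 each called 1 lower, against 3 here. In Th2 cells limma on TPM called 3 higher and 3 lower, against 5 and 4 here. It called 1 lower in pTh17 cells and 6 higher and 3 lower in Tr1 cells. The shares of all genes called were 43.8% in Th1, 21.8% in Th2, 58.2% in Th17, 18.5% in pTh17 and 34.7% in Tr1 cells. The Th17 count of 7 of 10 regulators is near its share. Prdm1, which encodes Blimp-1, a repressor of Il2, was higher in Th1 (2.68), Th2 (1.45), pTh17 (1.92) and Tr1 cells (2.24). It was near 0 in Th17 cells, at 0.320 TPM in positive and 0.437 TPM in negative libraries. Maf, an activator of Il10 and Il21, was higher in the same 4 cultures (1.58, 0.95, 1.90 and 1.52) and differed by 0.03 ± 0.10 in Th17 cells, where it was at 79.2 and 86.1 TPM. Foxo1, an activator of Il7r, was lower in all 5 cultures, by 0.37 to 0.76.

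Of the other ligands, Il4 averaged 117 ± 5.38 TPM in Th2 positive and 55.2 ± 3.15 TPM in Th2 negative cells, a log2 difference of 1.06 ± 0.15 (edgeR adjusted p = 4.16e-06), beside the lower Il4ra there. In pTh17 cells Il4 averaged 39.6 ± 4.12 and 17.7 ± 3.39 TPM (edgeR adjusted p = 0.000184). Il13 was called higher in the same 2 cultures. Il7, Il9, Il15 and Tslp were too low to test. Of the partner chains, Crlf2, which pairs with Il7r to bind TSLP, was called in Th17 cells alone (-0.42 ± 0.12). Il13ra1, which pairs with Il4ra, was called lower in Th1 and higher in Tr1 cells, at group means of at most 1.37 TPM there, and Il13ra2 was not tested.

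**Figure D5:**
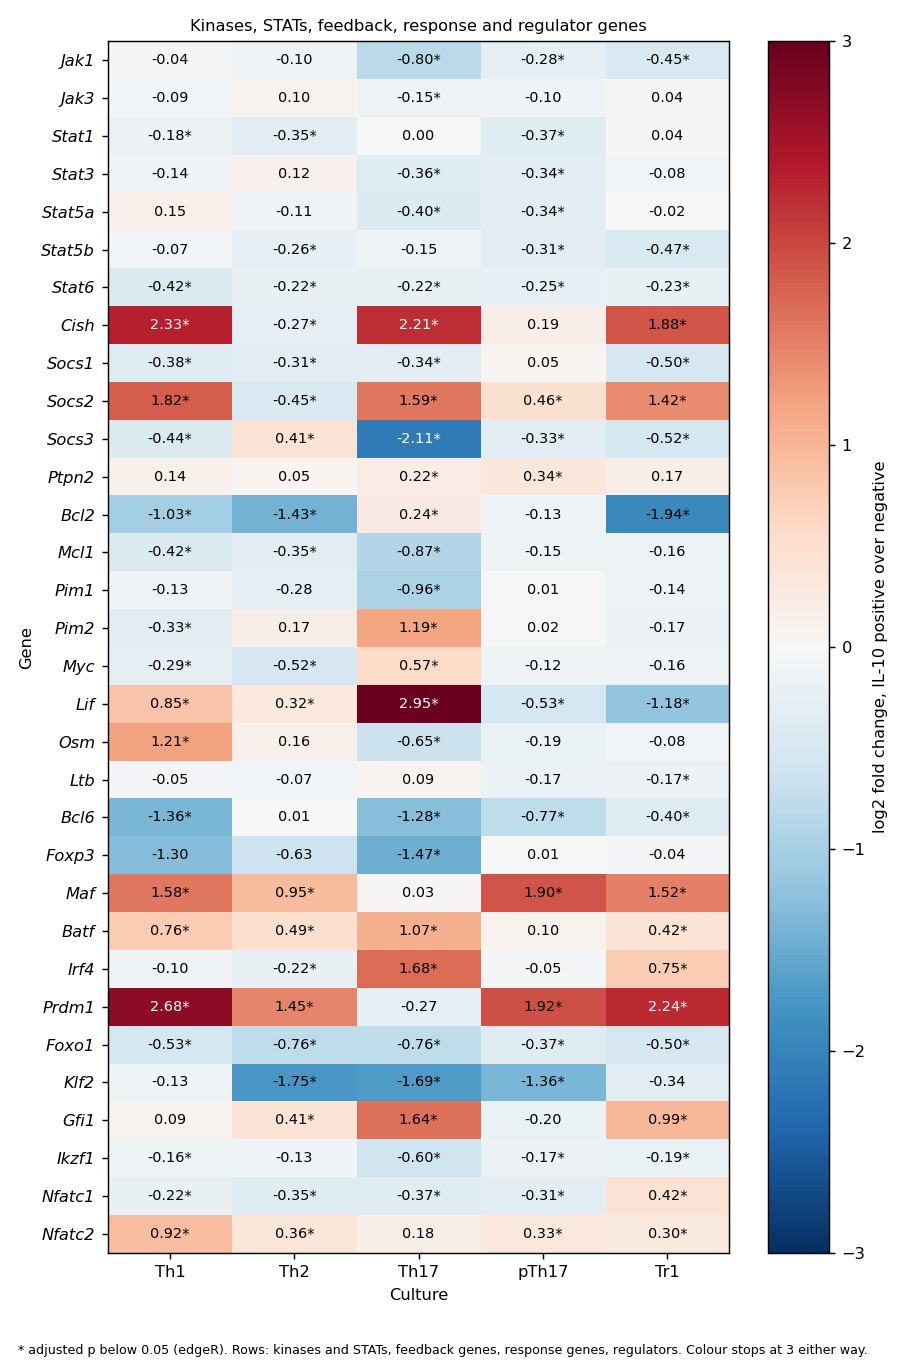
log2 fold change of IL-10 positive over negative cells for the kinases, STATs, feedback genes, response genes and regulators tested (rows) in the 5 cultures (columns), with an asterisk where edgeR's adjusted p is below 0.05. The Cish and Socs2 rows are highest in Th1, Th17 and Tr1 cells, and the Stat6 and Foxo1 rows are negative throughout.

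For each tested gene, the genes whose mean log2 CPM over the 10 groups followed it most closely were listed among about 8800 genes, as a description. Il21 was followed by Il23r (r = 0.97), the IL-23 receptor, and Clip3 (0.947). Il2 was followed by Cd200 (0.969), Il17a (0.95) and Il23r (0.935). Il2ra was followed by Sqle (0.983), a cholesterol synthesis enzyme, Slc16a3, a lactate carrier, and Acaca, an enzyme of fatty acid synthesis. Il15ra was followed by the class Ib MHC genes H2-T9 and H2-T23 (0.973 each) and by Gbp8, an interferon-induced gene; H2-T9 and Gbp8 have near-identical relatives, so their counts are uncertain. Il4ra was followed by Pim3 (0.978), Ncoa3 and Akr1c18, and Il7r by Eps8 (0.984), Jarid2 and Dhcr7. Il2rb was followed by Capn10 (0.977), Gna15 and P2rx7, and Il2rg by Vps41 (0.987), Gabarapl2 and Twf2. Il21r had the least close company, with Map1lc3a at 0.905, Atg4d at 0.901 and Flot1 at 0.871.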

How the data were processed

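Full-length (SMART-Seq2) RNA-seq libraries were made from 2000 sorted cells each, per the labels' protocols. The authors deposited RSEM gene tables with an expected count and a TPM per gene, per the file headers, on build mm10, per the submitters' processing notes. Neither an aligner nor a version of RSEM is stated there (not given in the sources used here). Reads carried no molecular identifiers, so intervals and floors (3 counts) cover counting error only. Sample titles gave the groups. One label field words the reporter sort alike for both compartments, so titles were followed, and Il10 was checked.

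Expected counts were rounded to whole numbers and fitted in edgeR 4.0.16 (R 4.3.3; TMM scaling, filterByExpr with a minimum count of 10), with a mean for each of the 10 groups over all 30 libraries. The quasi-likelihood test was two-sided, with Benjamini-Hochberg adjustment over all 12611 genes tested. The SE is the log2 fold change divided by the square root of F. Alternatives were DESeq2 1.42.0, median-of-ratios size factors, no filter, limma 3.58.1 on log2(TPM + 1), each library left out, each culture alone and a replicate block. The 10 genes are named in every comparison and the lists by role are counted, and both were chosen with earlier results of these data known. Like genes were the 3 with the highest Pearson r over group means (prior count 2) among genes averaging at least 5 CPM. Marker genes Trac, Trbc1, Trbc2 and Ighm were not analysed here. One gene of a marker list and one like gene are not reported here.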

Additional observations from a re-analysis of the deposited data

Results flagged for a closer look

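For each of the 9 tested genes the IL-10 positive minus negative difference was unequal over the 5 cultures, by edgeR's test of equality adjusted over all genes tested. Il21r, which fell in Th17 and rose in Th1, Th2 and Tr1 positive cells, had an adjusted p of 1.03e-25. Il2ra, higher throughout but by unequal amounts, had 7.21e-20, and Il21, higher everywhere but in pTh17, had 3.03e-17. For Il7r the edgeR adjusted p was 8.46e-13, for Il4ra 1.48e-09 and for Il2rb 8.39e-10. For Il2 it was 2.07e-05, for Il2rg 3.6e-05 and for Il15ra 0.00103. Such inequality was common in these libraries, since 60.7% of all genes tested were called in the same test.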

How the results depend on the processing

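For the 9 genes tested of the 10, the counts called stayed within 1.5 times the reported count under every alternative run. Leaving out 1 library gave 6 to 9 genes in Th1, 5 to 6 in Th2, 3 to 4 in pTh17, 6 to 7 in Tr1 and 6 to 7 in the mean of cultures. Of 1530 single values with a library left out, 1491 kept direction and call, 25 lost a call and 10 gained one. Signs turned for values that were never called. Il15ra in Th2 ranged from -0.076 (without positive replicate 8) to 0.025 (without positive replicate 9), with 0.01 without negative replicate 9, and was 0.0044 by limma on log2(TPM + 1). Il4ra in pTh17 ranged from -0.0028 (without positive replicate 13) to 0.029 (without positive replicate 15), and Il7r in Tr1 from -0.069 (without positive replicate 18) to 0.31 (without positive replicate 17). The cause was not tested. DESeq2 and median-of-ratios size factors each kept 49 of 51 values, no filter 46, and limma on TPM 47, whose median over all genes in Th17 was -0.13, against -0.04 in edgeR. What the title numbers mark is not stated. Deviations from group means showed no clear pairing by number (0 of 15 pairs correlated above 0.1, and 6 of 15 correlated best with their own number). With 3 libraries per group this cannot exclude pairing. With title numbers as a replicate block, 50 of 51 values kept their call, and Il7r in Th2 (-0.27) gained one (edgeR adjusted p = 0.00895). Counts below 10 in at least 1 compartment limit Il2 in Th1, Th2 and Tr1 cells and Il9r in all cultures. For the lists by role, scalings chosen after seeing the data moved some counts by more than 1.5 times, as given beside them, and limma on TPM also called 1 other ligand higher in Th17 and 1 partner chain higher in pTh17 cells.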
